A study of Mus musculus with 2 samples.

Results

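The genes described here were 48 genes of the cell division machinery, out of 24323 named genes on the array. They were listed by name, with earlier results of these data known. Every non-control spot whose gene name was one of the 48 was taken, with no use of its signal, which gave 102 spots of 75 probes on each array. They comprise 12 subunits of the anaphase-promoting complex (APC/C), 5 of its partners and targets, 8 G1 cyclins and kinases, 4 S to M phase cyclins and kinases, 4 inhibitors of cyclin-dependent kinases, 8 replication genes and 7 genes of mitosis and proliferation. RNA came from whole tooth and whole skin of wild-type mice (C57BL/6J per the study's methods), with no mutant allele and no treatment named in the labels, and each tissue was measured on 1 one-colour array of the same slide. The labels give postnatal day 0 for both tissues and do not say how many animals were used or whether they were pooled, while the methods name a stage 1 day later. The study describes its tooth germs as holding both epithelium and mesenchyme and its skin as holding hair follicles, so neither tissue is a pure cell population. Because each tissue had a single array, the spread among animals is unknown, no test was run, and every difference below compares these arrays only.

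The APC/C attaches ubiquitin to proteins that hold a dividing cell in metaphase, and their loss in the proteasome frees the sister chromatids and lets the cell divide. Its substrate recognition rests on a coactivator, Cdc20 in mitosis or Fzr1 (Cdh1) from late mitosis through G1, together with the Anapc10 subunit. Many cell cycle genes are transcribed in waves: E2F factors drive genes of the G1 to S transition, and complexes bound at CHR and CCAAT elements drive genes of G2 and mitosis. In the newborn tooth and skin, dividing epithelial cells lie beside cells that are leaving the cycle to become ameloblasts, hair cells or cornified epidermis.

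Promoters are shown for 6 genes, taken from the groups that the array values turn on: replication, mitosis, the APC/C and the Cdk inhibitors. RefSeq (GRCm38.p6) gave the 250 bases before 48 transcription starts of 41 of the genes. The genes without an entry were Ccnd1, Ccnd2, Ccne2, Ccna2, Mcm4, Aurkb and Cdc23. Each promoter is written on the strand of its gene, and capitals mark an E2F word, a CHR word or the CCAAT box, on either strand. The E2F words searched were TTCCCGC with its variant TTCGCGC, then TTGGCGC with its variant TTGCCGC. The CHR words were TTTGAA with its variant TTCGAA. The E2F words read backwards can share letters with CCAAT or with each other. Mcm5 (chr8:75109259-75109508, plus strand) and Mcm6 (chr1:128359706-128359955, minus strand) encode parts of the replicative helicase. Cdk1 (chr10:69352913-69353162, minus strand) and Cdc20 (chr4:118437344-118437593, minus strand) act in mitosis. Cdkn2b (chr4:89311033-89311282, minus strand) had the widest difference of the 48 genes that was measured on both arrays. Anapc10 (chr8:79711513-79711762, plus strand, the upstream of 2 starts) is the subunit at the centre of the study, and no searched word lies in this window.
Mcm5: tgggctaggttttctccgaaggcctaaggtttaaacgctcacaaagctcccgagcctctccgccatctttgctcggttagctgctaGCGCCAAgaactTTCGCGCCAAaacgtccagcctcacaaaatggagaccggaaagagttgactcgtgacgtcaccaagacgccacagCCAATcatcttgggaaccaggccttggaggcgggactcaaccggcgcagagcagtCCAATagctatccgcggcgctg
Mcm6: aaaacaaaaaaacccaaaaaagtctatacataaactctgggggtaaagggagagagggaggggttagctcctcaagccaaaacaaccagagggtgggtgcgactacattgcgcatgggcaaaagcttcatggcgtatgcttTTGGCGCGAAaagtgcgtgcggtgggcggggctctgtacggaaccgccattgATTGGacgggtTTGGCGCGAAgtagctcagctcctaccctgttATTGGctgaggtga
Cdk1: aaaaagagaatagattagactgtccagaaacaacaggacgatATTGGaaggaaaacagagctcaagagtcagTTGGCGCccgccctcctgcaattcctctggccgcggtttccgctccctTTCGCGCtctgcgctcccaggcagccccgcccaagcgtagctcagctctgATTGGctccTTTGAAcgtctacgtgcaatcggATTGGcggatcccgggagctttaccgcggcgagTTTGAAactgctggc
Cdc20: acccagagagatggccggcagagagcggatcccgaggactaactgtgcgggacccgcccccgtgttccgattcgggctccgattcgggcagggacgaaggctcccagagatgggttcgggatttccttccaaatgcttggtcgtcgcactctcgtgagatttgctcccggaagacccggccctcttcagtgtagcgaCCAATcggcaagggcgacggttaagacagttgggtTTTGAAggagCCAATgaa
Cdkn2b: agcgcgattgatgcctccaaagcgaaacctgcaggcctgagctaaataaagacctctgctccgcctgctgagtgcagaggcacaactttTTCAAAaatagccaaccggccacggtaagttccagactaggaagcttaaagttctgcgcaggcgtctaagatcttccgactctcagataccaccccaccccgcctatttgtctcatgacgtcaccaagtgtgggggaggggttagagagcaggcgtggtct
Anapc10: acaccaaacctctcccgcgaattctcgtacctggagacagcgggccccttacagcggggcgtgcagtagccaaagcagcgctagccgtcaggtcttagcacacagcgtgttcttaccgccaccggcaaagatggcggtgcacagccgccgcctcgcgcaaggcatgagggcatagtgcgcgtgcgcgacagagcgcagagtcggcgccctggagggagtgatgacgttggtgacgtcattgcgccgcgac

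An E2F word was found in 10 of the 48 promoters (20.8%), against 7.89% of all 32851 promoters of this length. The replication genes held it in 5 of 8 promoters, the S to M group in 2 of 3, and the APC/C subunits in 0 of 13. CCAAT was present in 29 of 48 promoters (60.4%), against 33.8% of all promoters. It lay in 8 of 8 replication promoters, in 3 of 3 S to M promoters and in 6 of 6 promoters of the mitosis group, but in 4 of 13 promoters of APC/C subunits. The CHR words were in 12 of 48 promoters (25%) and in 17.1% of all promoters. The word AACAAT, which Sox factors can read, or its shifted form ACAATG was in 5 of 48 promoters (10.4%) and in 16.2% of all promoters, and neither window of Anapc10 held one. These matches are descriptions of the letters in the windows and no binding was measured here. The study reports binding of the Sox factor Sox21 at the Anapc10 promoter region in a rat dental epithelial cell line. It also names a candidate Sox21 site there. Only the Sox words above were searched, and only in these windows, so whether the study's site lies in them was not tested.

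Levels are given as the log2 processed signal over the 75th percentile of its array, so that 0 is the brightness at that percentile, which was a signal of 428 for tooth and 276 for skin. A difference is the skin level minus the tooth level, and a gene was taken as measured if the signal of its probe stood well above background in 1 tissue or both. Of the 48 genes, 45 were well above background on both arrays, Cdkn2a only on the tooth array, and Anapc10 and Ccne2 on neither. No member spot was saturated. The extraction software's own signal errors gave a difference an error of 0.20 (median, lowest 0.20, highest 0.37, n = 45 genes), and repeated spots of 1 probe gave an SD of 0.12. By the software's error, 34 of the 45 differences were larger than their error and 11 were not. That error was nearly the same for most genes, its lowest and median values both being 0.20, and it leaves out the choice of scale. A difference larger than it is therefore not shown to lie beyond noise. Both measures of error are technical and hold nothing of the variation between animals.

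The arrays carried the marks of their tissues. Ameloblast genes were well above background only on the tooth array for 5 of 6 markers, with Amelx, the main enamel matrix protein, at 10.27 in tooth and not well above background in skin, which was at least 16383-fold higher in tooth. All 5 markers of suprabasal epidermis and all 4 hair follicle markers were at least 2-fold higher on the skin array, with summed levels of 2.59 and 1.13 in tooth and 11.88 and 9.57 in skin. The basal epithelial markers Krt5, Krt14 and Trp63 were well above background on both arrays, and their summed level was 9.08 in tooth and 10.04 in skin. A summed level is the log2 of the added scaled signals of a list, so its brightest gene weighs most. Summed levels of fibroblast markers were 9.56 in tooth and 7.60 in skin, and those of skeletal muscle 1.85 and 4.83. Of the 5 fibroblast markers, 4 were higher in tooth, and Col3a1 was at 0.13. The brightest in tooth was Col1a1, at 8.85 in tooth and 5.68 in skin. All 5 odontoblast and osteoblast markers were at least 2-fold higher in tooth. Osteoclast markers summed to 8.20 in tooth and 4.19 in skin, with all 3 higher in tooth. Leukocyte markers summed to 4.98 and 4.72 and endothelial markers to 4.93 and 5.25, but these lists were mixed: Cd68 at -1.79 and Lyz2 at -1.58 opposed Cd3e at 0.84, and Cdh5 at -2.70 opposed Pecam1 and Kdr. In whole tissues, fewer cells of a type and less RNA per cell cannot be told apart, and the part of cell composition in the differences below was not tested.

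Against this contrast the cell cycle genes stood close together. Of the 45 genes well above background on both arrays, 1 was at least 2-fold apart, whereas 23.8% of all named genes measured in that way were. That gene was Cdkn2b, higher in skin, and the other 44 lay within 2-fold. Cdkn2a, kept through its tooth value alone, was at least 1.34-fold higher in tooth, so a 2-fold difference was not shown for it. Taking such dim values as they were measured, 29.6% of all 17409 measured named genes were at least 2-fold apart, 15.5% higher in tooth and 14.2% higher in skin, and Cdkn2a would count among those higher in tooth. With dim values at their bound, 0 of the 46 cell cycle genes were at least 2-fold higher in tooth and 1 in skin, against 13.4% and 14.0% of all genes. Probes of these genes were also bright, with a median level of 3.19 against 0.27 for all measured genes. Of the 4991 named genes with a mean level at or above 1.99, the lower quartile of the cell cycle genes, 17.0% were at least 2-fold apart, and 0 of the 34 cell cycle genes in that range were.

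**Figure D1:**
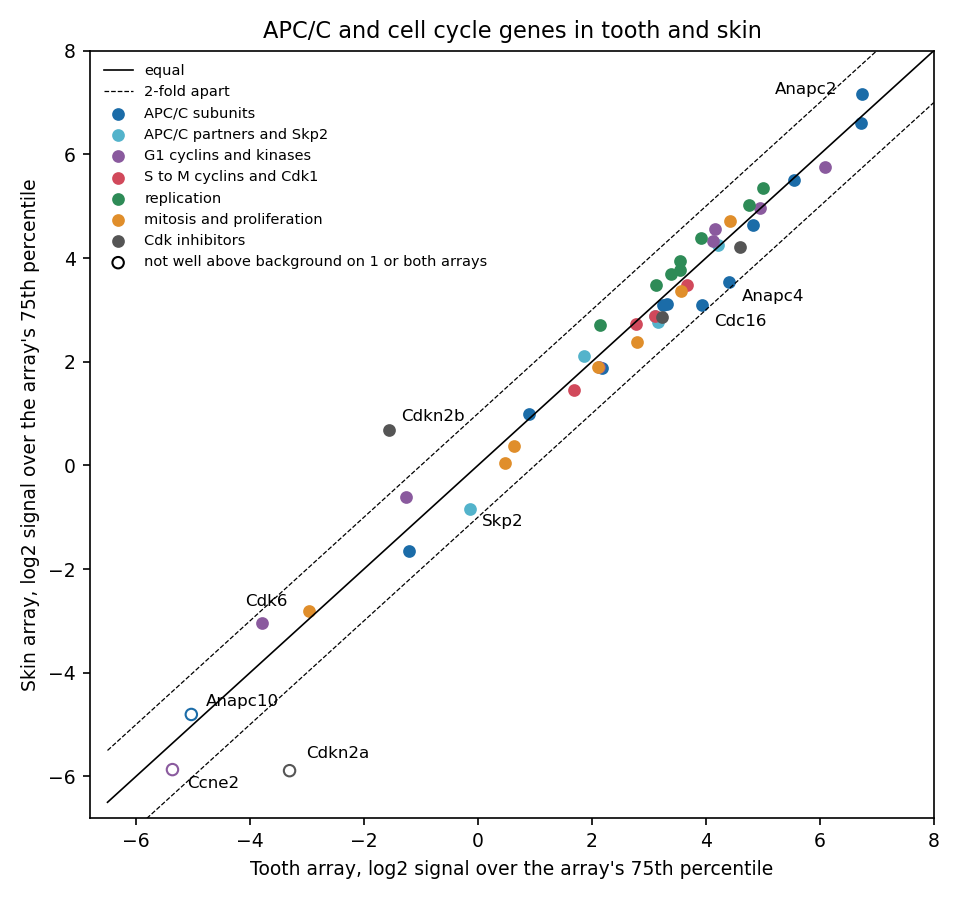
Level of each of the 48 genes on the tooth array (x axis) and the skin array (y axis), as log2 signal over the 75th percentile of the array, with 1 point per gene coloured by group, the solid line at equal levels and the dashed lines at 2-fold. Open points are genes not well above background on 1 or both arrays. Cdkn2b at 2.24 above the line is the filled point outside the dashed lines, and the open point of Cdkn2a below them is drawn at its measured skin value, which supports only a bound of 1.34-fold.

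The direction was divided. In tooth 26 genes were higher and in skin 20, so 56.5% were higher in tooth against 52.4% of all measured genes. The median difference was -0.14 with quartiles of -0.29 and 0.29, against -0.04 with quartiles of -0.58 and 0.47 over all genes. The choice of scale sets where 0 lies: scaling both arrays to the spike-in controls moved the median of all genes to -0.67, scaling to each array's median moved it to -0.29, and keeping dim probes moved it to 0.18. The cell cycle genes moved with all genes under the shifts, and their median lay 0.10 below that of all genes under every setting that only shifts an array. With the mean of all probes it lay 0.05 above that of all genes, with normexp 0.17 below and with no filter on dim probes 0.32 below, so the side on which it lay depends on the probes used. Under spike-in scaling 43 of the 46 genes were higher in tooth and 10 at least 2-fold so, counting Cdkn2a at its measured skin value, where 32.4% of all genes were at least 2-fold higher in tooth.

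**Figure D2:**
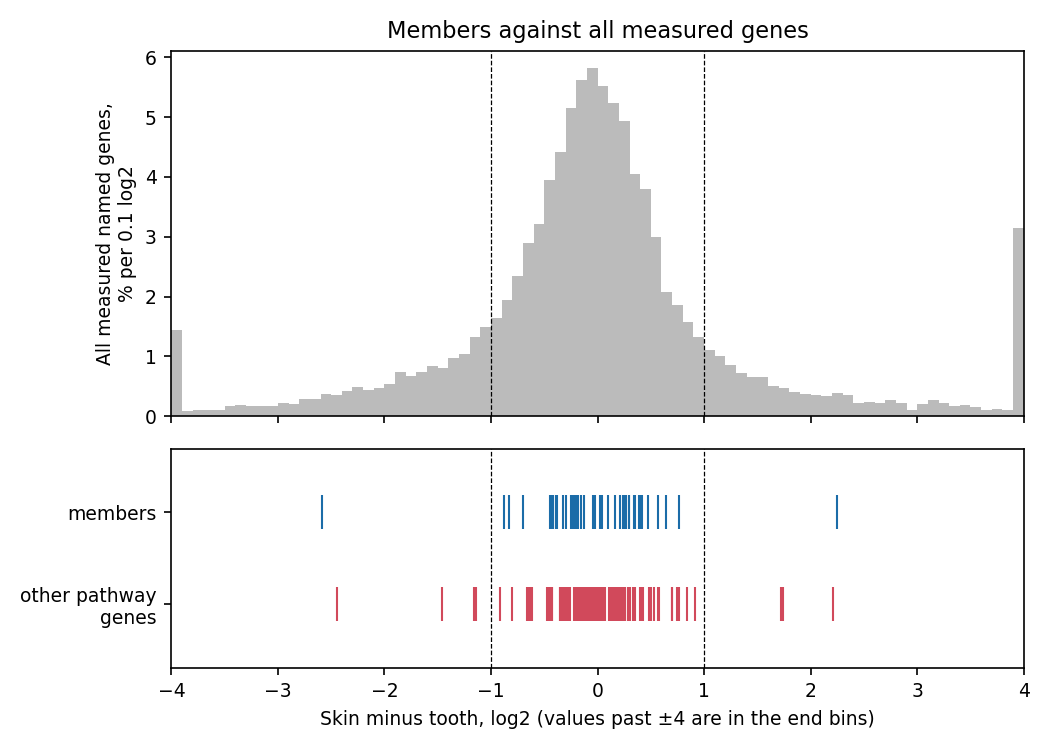
Differences in level, skin minus tooth in log2, for all measured named genes (upper panel, percentage of genes per bin of 0.1) and, as 1 tick per gene, for the cell cycle genes and the other genes of the pathway (lower panel). Dashed lines mark 2-fold, and values past 4 in either direction are in the end bins. Of the cell cycle genes, 44 of 46 lie between the dashed lines, and Cdkn2a, the tick left of them, has only a bound of 1.34-fold, while 29.6% of all genes lie at or outside them.

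The APC/C subunits were near equal in the tissues and mostly a little higher in tooth. Of 11 measured subunits, 9 (81.8%) were higher in tooth and 2 in skin, where 52.4% of all measured genes were higher in tooth. The median difference was -0.19, and 6 of the 11 differences were larger than the software's error. In Cdc23 and Anapc11 the sign depended on the probe. The median was negative under all scalings, but the scalings that moved genes most moved them toward tooth. The median of all genes lay between -0.67 and 0.0007 under them, so this sign was hardly put to the test. None was 2-fold apart as reported, by the probe standing for its gene. The 2 widest differences were in Anapc4 and Cdc16. Anapc4, a scaffold subunit (probe at chr5:53257856-53257915, mm9), had a level of 4.41 in tooth and 3.53 in skin, 1.83-fold higher in tooth. Cdc16, a subunit of the arc of repeats that binds coactivators (probe at chr8:13781822-13781881, mm9), had 3.93 in tooth and 3.10 in skin, 1.78-fold higher in tooth. Each rests on 1 probe, and over all processing settings the difference of Anapc4 ranged from -1.50 to -0.83 and that of Cdc16 from -1.46 to -0.79. The other proteins of this arc were closer: Cdc27 had 0.89 in tooth and 0.99 in skin, within its error. Anapc7 had 3.25 in tooth and 3.09 in skin, also within its error. A dimmer second probe of Anapc7 gave a wider difference of -0.63, beyond its error of 0.36. Cdc23 had -1.21 in tooth and -1.66 in skin by the probe with the higher mean. Its other probe, dimmer in tooth but brighter in skin, gave the opposite, -3.17 in tooth and -1.35 in skin, so the direction for Cdc23 was not settled. Cdc26, a small protein that steadies Cdc16, had 2.18 in tooth and 1.88 in skin, and its other probe went the same way with a difference of -0.43.

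The catalytic core went both ways. Anapc2, the cullin of the complex, had 6.74 in tooth and 7.17 in skin. Its difference, 0.42 as reported and -0.20 under spike-in scaling, was the highest of the subunits. Anapc11, the RING protein that pairs with Anapc2, had 4.83 in tooth and 4.64 in skin over 10 spots of its probe, whose SD was 0.09 in tooth and 0.04 in skin. A second, dim probe of Anapc11 differed in sign, with -4.25 in tooth and -3.24 in skin. Among the scaffold subunits, Anapc1 had 3.32 in tooth and 3.11 in skin, just beyond its error. Anapc5 had 6.72 in tooth and 6.60 in skin, and its other probes gave differences of -0.24 and -0.21. The probe at -0.21 is placed at chr5:10957954-10958013 (mm9), far from the others, and whether it reads Anapc5 was not tested. Anapc13, a small stabilising subunit, had 5.54 in tooth and 5.51 in skin, nearly the same.

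Anapc10, the subunit that helps to recognise substrates, could not be compared. It has 1 probe on the array (chr8:82301144-82301203, mm9) with a signal of 13.1 in tooth and 9.87 in skin, and neither stood well above background. The lowest signals among probes well above background corresponded to levels of -4.52 in tooth and -3.73 in skin, and Anapc10 lay at -5.03 and -4.81. A level under these bounds gives no order between the tissues and does not show that the transcript is absent. No other probe on the array carries its name.

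Partners of the complex showed small differences, and the coactivators were close. Cdc20 (probe at chr4:118105534-118105593, mm9) had 4.22 in tooth and 4.26 in skin, within its error. Fzr1 (probe at chr10:80829827-80829886, mm9) had 3.10 in tooth and 2.88 in skin, and its other probe gave a difference of -0.37 in the same direction. Fbxo5 (Emi1), an inhibitor of the APC/C, had 1.86 in tooth and 2.11 in skin, which turns to a difference of -0.36 under spike-in scaling. Ube2c, the conjugating enzyme that starts ubiquitin chains for the complex, had 3.16 in tooth and 2.76 in skin, and its other probe differed by -0.46. Skp2, the F-box protein that marks Cdkn1b for destruction and is itself a target of APC/C with Fzr1 (probe at chr15:9042088-9042147, mm9), had -0.15 in tooth and -0.84 in skin. It was 1.62-fold higher in tooth, the widest of the 5, with a difference between -1.32 and -0.55 over all settings. Cdkn1b, a Skp2 target, had 3.24 in tooth and 2.85 in skin, and a second probe gave -0.34.

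**Figure D3:**
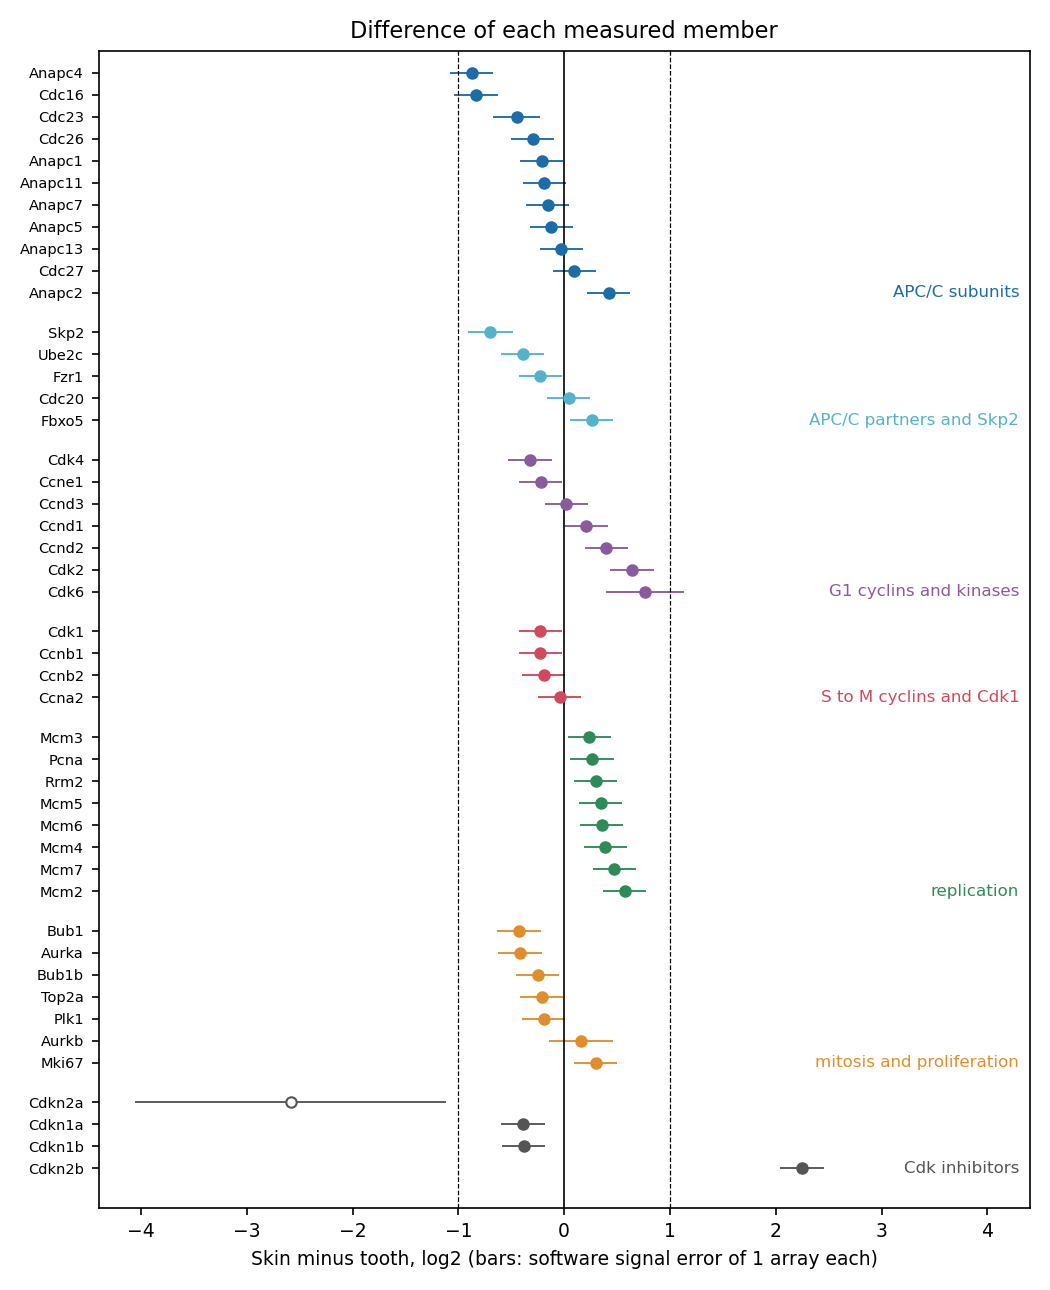
Difference in level, skin minus tooth in log2 (x axis), for each of the 46 measured genes by group, ordered within a group. Bars are the extraction software's signal error of 1 array per tissue, dashed lines mark 2-fold, and the open point (Cdkn2a) has no skin value above background. All 8 replication genes lie to the right of 0 and 9 of 11 APC/C subunits to the left. Of all measured named genes, 52.4% were higher in tooth. Under spike-in scaling the replication genes also lie to the left.

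Cyclins and kinases of G1 leaned to skin, 5 of 7 measured genes with a median difference of 0.21, but the median turned to -0.04 when arrays were scaled to their medians and to -0.41 under spike-in scaling. Ccnd1 had 4.12 in tooth and 4.33 in skin, just beyond its error. Ccnd2 had 4.16 in tooth and 4.56 in skin, and Ccnd3 had 4.95 and 4.97 with a second probe at a difference of 0.09. The D cyclins bind Cdk4 and Cdk6 to open G1. Those partners went in opposite directions: Cdk4 had 6.09 in tooth and 5.76 in skin, and all 3 of its probes were higher in tooth, at -0.32, -0.36 and -0.39. Cdk6 had -3.80 in tooth and -3.03 in skin, 1.70-fold higher in skin, at a level near background where its error was 0.37. Cdk2, which acts at entry to S phase, had -1.26 in tooth and -0.62 in skin, 1.56-fold higher in skin. The differences of Cdk2 and Cdk6 were not negative under any setting, with lowest values of 0.02 and 0.14. Ccne1, a partner of Cdk2, had 2.13 in tooth and 1.91 in skin, and a dim second probe gave -0.20. Ccne2, the other E cyclin, had -5.36 in tooth and -5.87 in skin, not well above background in either.

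The 4 genes that carry the cell from S phase into mitosis were all a little higher in tooth, with a median difference of -0.21. That median stayed negative under all scalings, but the scalings that moved genes most moved them toward tooth. Ccnb1, a cyclin destroyed through the APC/C, had 3.10 in tooth and 2.88 in skin. Ccnb2 had 3.67 in tooth and 3.47 in skin, within its error. Cdk1, their kinase, had 1.68 in tooth and 1.45 in skin. Ccna2 had 2.78 in tooth and 2.73 in skin, the least apart of the 4. Dimmer probes of Ccnb1 and Cdk1 disagreed in sign with the brighter ones, at 0.42 for 1 probe of Ccnb1 and 0.44 for 1 probe of Cdk1, so the direction in these genes depends on the probe. With the mean of all probes, the median of the group was -0.03.

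Among Cdk inhibitors lay the gene that stood farthest apart. Cdkn2b, an INK4 protein that holds back Cdk4 and Cdk6 (probe at chr4:88952276-88952335, mm9), had -1.56 in tooth and 0.69 in skin, at signals of 145 and 444. It was 4.74-fold higher in skin, or 2.24 in log2. Its second probe was not well above background in tooth and at -1.88 in skin, which made it at least 5.04-fold higher in skin. Over 11 settings the difference was between 1.62 and 2.29 and at least 2-fold in each. Cdkn2a, whose locus lies beside Cdkn2b and encodes an INK4 protein and Arf, had -3.31 in tooth by 1 probe and was not well above background in skin, at least 1.34-fold higher in tooth, and its other probe was above background in neither. That bound is below 2-fold although the measured difference was -2.58, and with normexp background correction it was -0.01. Cdkn1a, a target of p53, had 4.61 in tooth and 4.22 in skin over 9 spots of its probe, with an SD of 0.04 in tooth and 0.07 in skin. A dim second probe of Cdkn1a gave -0.03.

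Replication genes were the 1 group whose measured members all had higher values in skin, 8 of 8 with a median difference of 0.35, and all 8 were lower in skin under spike-in scaling, where the median was -0.27. Mcm2 to Mcm7 form the ring of the replicative helicase. Mcm2 had 2.14 in tooth and 2.71 in skin, 1.49-fold higher in skin and the widest of the group. Mcm7 had 3.91 in tooth and 4.39 in skin. Mcm4 had 3.55 in tooth and 3.94 in skin. The remaining helicase genes lay between 0.24 and 0.35. Mcm6 had 5.0 in tooth and 5.35 in skin, Mcm5 had 3.13 and 3.48, and Mcm3 had 3.54 and 3.78. A second probe of Mcm3 gave a difference of 0.28, close to 0.24 of the first. Pcna, the sliding clamp of DNA polymerases, had 4.76 in tooth and 5.03 in skin. Rrm2, which makes deoxyribonucleotides, had 3.39 in tooth and 3.69 in skin. All 8 differences were larger than the software's error, which leaves out the choice of scale. Summed over the group, the level was 6.92 in tooth and 7.27 in skin. Basal epithelial markers were also higher in skin, and their part in the replication values was not tested.

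Genes of mitosis and proliferation were split, 5 of 7 higher in tooth and 2 in skin, with a median difference of -0.21. That median was negative under all scalings, but the scalings that moved genes most moved them toward tooth. Bub1, a kinase of the spindle checkpoint, had 0.47 in tooth and 0.04 in skin over 9 spots, whose SD was 0.04 in tooth and 0.08 in skin. Bub1b (BubR1), which keeps Cdc20 from activating the APC/C, had 0.63 in tooth and 0.38 in skin. Aurka, a kinase of the spindle poles and an APC/C target, had 2.79 in tooth and 2.37 in skin. These 3 genes were lower in skin by more than their error. Top2a, which untangles DNA, had 2.12 in tooth and 1.90 in skin. Plk1, a kinase that prepares mitotic entry, had 3.57 in tooth and 3.37 in skin, within its error. Aurkb, of the chromosomal passenger complex, had -2.96 in tooth and -2.80 in skin, also within its error. Mki67, the proliferation antigen, had 4.42 in tooth and 4.71 in skin, and its second probe gave 0.58. Its first difference turns to -0.32 under spike-in scaling, so a higher proliferation marker in skin depends on the scaling.

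**Figure D4:**
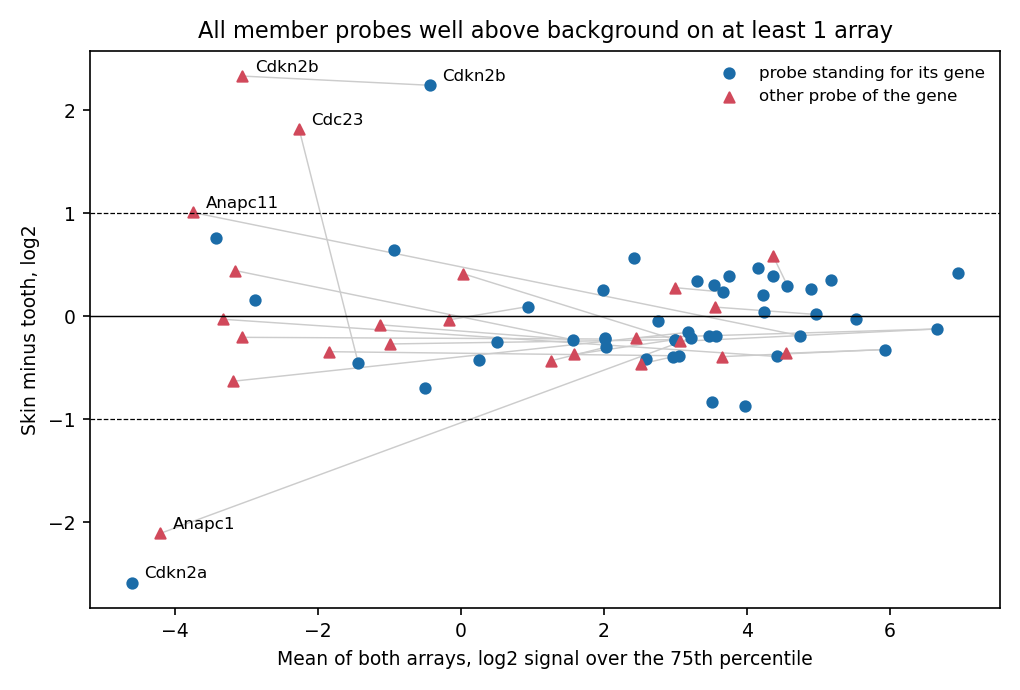
Difference in level, skin minus tooth in log2 (y axis), against the mean level of both arrays (x axis) for every probe of the 48 genes that stood well above background in 1 tissue or both. Circles are the probes that stand for their gene, triangles are other probes, grey lines join probes of a gene, and dashed lines mark 2-fold. The second probes of Cdc23 and Anapc11 lie on the other side of 0 from their partners, and both probes of Cdkn2b lie above 2.

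Probes of 1 gene gave a check that did not need a second array. Of 20 genes with more than 1 probe, 17 had probes that could be compared, and in 5 of these the signs differed: Anapc11, Ccnb1, Cdc23, Cdc27 and Cdk1. The gap between probes was 2.27 in Cdc23 and 1.20 in Anapc11, larger than the whole difference reported for either gene. In Cdc27 the gap was only 0.13, since both probes were near 0. The second probe of Anapc11 was dim on both arrays and that of Cdc23 was dimmer only in tooth, and in both genes the sign of the difference depended on the probe. In the other 12 genes all compared probes pointed the same way, including Cdk4 with 3 probes and Mcm3, Mki67, Fzr1 and Ube2c with 2.

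Set side by side, replication genes and genes of later phases differed in where they lay between the tissues. This comparison was chosen after the values had been seen. The 8 replication genes had a median difference of 0.35, and the 11 genes of the S to M and mitosis groups a median of -0.21, of which 9 were higher in tooth. The gap of 0.56, or 1.48-fold, does not depend on where 0 is set and was between 0.52 and 0.56 under all settings. Mki67 alone of the 11 lay above Mcm3, the lowest of the replication genes. Longer lists of other genes gave a smaller gap of the same sign: 26 other replication genes had a median difference of 0.27 with 20 higher in skin, and 28 other mitosis genes a median of -0.11 with 22 higher in tooth. The gap was 0.38, or 1.30-fold, and between 0.33 and 0.38 under all settings, but the ranges overlapped and 24 of the 28 mitosis genes lay above the lowest replication gene. None of the 26 or the 28 was 2-fold apart. The longer lists were chosen with earlier results of these data known and come from the same arrays, so they are no independent check.

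**Figure D5:**
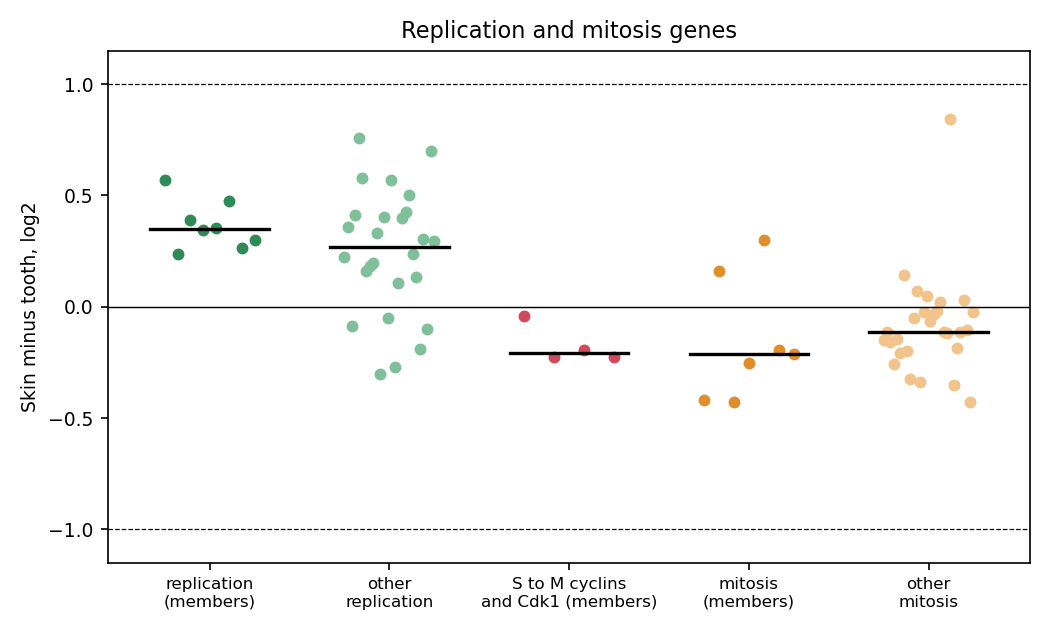
Difference in level, skin minus tooth in log2 (y axis), for the replication genes, the S to M cyclins with Cdk1, the mitosis genes and 2 longer lists of other genes, with 1 point per gene (spread sideways for legibility) and a bar at the median. Dashed lines mark 2-fold. Medians are 0.35 and 0.27 for the replication lists and -0.21, -0.21 and -0.11 for the others, and spike-in scaling moves every point down by the same amount so that both replication medians fall below 0.

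Other genes of the pathway also lay mostly within 2-fold. Of 110 other cell cycle genes, 108 were measured, 63 higher in tooth and 45 in skin, with a median of -0.06. The share higher in tooth was 58.3%, against 52.4% of all genes, and 7 of the 108 were at least 2-fold apart, against 29.6% of all genes. Among all genes well above background on both arrays, as 106 of the 108 were, 23.8% were at least 2-fold apart. The list of other APC/C subunits, partners and targets had 5 of 7 genes higher in tooth, a median of -0.35 and none 2-fold apart, and Fbxo43 was well above background on neither array. Of the spindle checkpoint and kinetochore genes, 9 of 13 were higher in tooth with a median of -0.07. Zwint, a kinetochore protein, had 3.39 in tooth and 2.24 in skin, and Cenpf, also of the kinetochore, was above background only in skin and at least 4.63-fold higher there. In the SCF ligase list, the home of Skp2, 5 of 7 genes were higher in tooth with a median of -0.17, and Skp1a was well above background on neither array. Btrc, another F-box protein of that ligase, had 0.11 in tooth and -1.35 in skin.

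The list of E2F, Rb and MuvB genes held 3 of the 7 that were at least 2-fold apart. Of the genes on that list, 9 were higher in tooth and 8 in skin, with a median of -0.03. E2f2, an activator of the G1 to S genes, had 2.18 in tooth and 3.92 in skin. E2f8, a repressor of the family, had -0.16 in tooth and 1.56 in skin. E2f5, which works with Rb relatives, had -1.43 in tooth and -2.57 in skin. Other Cdk inhibitors and p53 targets were 7 of 10 higher in tooth with a median of -0.23. Cdkn1c, an inhibitor of the same family as Cdkn1a and Cdkn1b, had 5.84 in tooth and 3.39 in skin, the widest difference toward tooth of all cell cycle genes measured on both arrays, at -2.44.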

How the data were processed

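RNA of 1 tooth and 1 skin sample was measured on Agilent SurePrint G3 mouse 8×60K arrays. Per the file headers, the deposited spot intensities came from Agilent Feature Extraction 10.7.3.1, which subtracted background and removed trends within an array, and the coordinates of probes are mm9. The authors also deposited a linear ratio of each processed intensity to a factor of 430.7 (tooth array) or 274.5 (skin array), which was used as an alternative. Each array had 62976 spots, 59305 of them non-control. Here outlier spots were left out (3 member spots), spots of a probe were averaged as log2, and the 75th percentile of 55675 probes was subtracted. The probe with the highest mean stood for its gene. Where 1 side was not well above background, a fold bound was taken against the higher of that probe's own signal and the lowest signal among probes well above background. The 8 spike-in controls detected on both arrays had a median unscaled difference of -0.01, with a lowest of -0.03 and a highest of 0.54. Names came from the array, and 65 of 75 member probes had an accession in RefSeq (GRCm38.p6), which was used for names and promoters only. Exon and UTR positions were not analysed here. All 48 genes were named, and of each other list up to 3 genes in each direction at least 2-fold apart. The members and lists were chosen with earlier results of these data known. No test was run, with 1 array per tissue, and the number of arrays limits the precision. Calculations used Python 3.11.15, numpy 2.4.6, pandas 2.3.3 and, for normexp (offset 50), R 4.3.3 with limma 3.58.1, and were tested on simulated data. Alternatives were other scalings, background correction, filters on dim probes and the mean of all probes.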

Additional observations from a re-analysis of the deposited data

How the results depend on the processing

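No paired analysis was possible because there was 1 array per tissue, and for the same reason leaving out a replicate could not be run. The count of cell cycle genes at least 2-fold higher in skin was 1 under all 10 alternatives. The count at least 2-fold higher in tooth, 1 when the dim skin value of Cdkn2a is taken as measured, was 3 with arrays shifted to their medians, 10 with spike-in scaling, 0 with normexp background correction, 0 with genes well above background on both arrays only, 0 with dim values at their bound and 2 with the mean of all probes. The 10 genes were Anapc4, Cdc16, Cdc23, Skp2, Ube2c, Cdkn1a, Cdkn1b, Cdkn2a, Aurka and Bub1. With the mean of all probes the 2 genes were Anapc1, at -1.16, and Cdkn2a. Spike-in scaling put 43 genes higher in tooth rather than 26. With arrays shifted to their medians, the median difference was -0.39 for all cell cycle genes, -0.44 for APC/C subunits, -0.47 for APC/C partners and Skp2, -0.041 for G1 genes, -0.46 for S to M genes, -0.64 for Cdk inhibitors, 0.10 for replication and -0.46 for mitosis. With spike-in scaling these medians were -0.76, -0.81, -0.85, -0.41, -0.83, -1.01, -0.27 and -0.84 in the same order. Both alternatives add 1 constant to every gene. Normexp gave a median of 0.092 for G1 genes and -0.22 for Cdk inhibitors, and the mean of all probes gave 0.0023 for all cell cycle genes and -0.035 for S to M genes, for which the cause was not tested. Over all named genes, 2691 were at least 2-fold higher in tooth as reported, against 5639 with spike-in scaling and 1672 with normexp, and 2466 were at least 2-fold higher in skin, against 1573 with spike-in scaling. Differences of all 46 single genes moved by more than 0.12, the SD from repeated spots, with spike-in scaling and with arrays shifted to their medians. The number that moved was 13 with normexp, 8 with the mean of all probes, 6 with quantile normalization and 1 with dim values at their bound. Signal over background limits Anapc10, Ccne2, Cdkn2a and the second probes of Cdkn2b and Anapc1.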
